A study of Homo sapiens with 2 samples.

Results

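The lysosome is the acidic compartment in which cells break down protein, glycan and lipid, and monocytes and macrophages are rich in it. A rotary proton pump, the V-ATPase, acidifies its lumen. Soluble hydrolases, cathepsins among them, digest the cargo there, and heavily glycosylated membrane proteins line the inner face. The transcription factor TFEB and its relatives TFE3, MITF and TFEC are known to drive many of these genes together, through an E-box with the core letters CACGTG.

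The genes described here are 43 lysosomal genes, listed by name for their known roles and grouped into proteases, glycosidases, lipid handling, acid phosphatases with progranulin, membrane proteins with TFEB, and proton pump subunits. A probe was taken as a member's if its only gene symbol in the platform annotation was that member. This gave 69 probes for 40 of the 43 genes, out of 20046 genes named on the array. ACP5, CD63 and ATP6V0C have no probe in that annotation, so their levels were not analysed here, though their promoters were searched. Of the 40, 38 were detected on both arrays by at least 1 probe, which means a detection p-value under 0.01. LGMN and ATP6V0D2 were detected on neither array.

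The samples were THP-1 cells, an established human monocytic leukaemia line, in 2 puromycin-selected derivatives. One, shLY6E, stably carried a short hairpin RNA against LY6E, and the other, shCtrl, a scrambled hairpin. Each was read on 1 Illumina array, so there was no replicate and no difference could be tested. The labels do not say how many hairpins against LY6E were used, or whether the derivatives are clones.

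LY6E, the targeted gene, encodes a GPI-anchored surface protein. It had a deposited intensity of 253 in shLY6E and 1049 in shCtrl, which after normalization was 27.3% of the control level. Of 9 monocytic marker genes with a probe, 9 were detected, and 4 of them were at least 1.5-fold higher in shLY6E: CD14 at 10.3-fold, LYZ at 5.25-fold, CSF1R at 1.93-fold and ITGB2 at 1.66-fold. ITGAM was the 1 marker below 0, at 71.7% of the control level. The share of all detected genes at least 1.5-fold higher was 6.55%. The 9 had a median log2 difference of 0.53, and the part of this in the lysosomal values was not tested. In such bulk RNA, fewer cells of a type and less RNA per cell cannot be told apart. Markers of T cells (0 of 5 genes with a probe), erythroid cells (0 of 2) and epithelial cells (0 of 4) were not detected. Of fibroblast markers 1 of 4 was detected, PDGFRB, at an intensity of 101 in shLY6E and 134 in shCtrl. Of B cell markers 2 of 3 were: CD79A at 112 in shLY6E and 126 in shCtrl, and CD79B at 108 in shLY6E and 164 in shCtrl. The lowest detected intensities on the array were 106 in shLY6E and 129 in shCtrl.

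Each difference below is the normalized log2 intensity in shLY6E less that in shCtrl, and folds are computed from it. Deposited intensities were mostly lower on the shLY6E array: over probes detected on both arrays, the median ratio of shLY6E to shCtrl was 0.745. A probe at about this ratio had a difference near 0 after normalization. As a yardstick of technical spread, probes of one gene on the same 2 arrays gave differences with a within-gene SD of 0.28 over 2254 genes. This SD holds no variation between cultures.

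With the arrays quantile-normalized, lysosomal genes as a whole stood at about the same level in shLY6E as in shCtrl, with a few members apart. The median difference over the 38 detected members was 0.0048, and over all 10565 detected genes it was -0.04. CTSH and CTSZ, at 3.06-fold and 2.01-fold, and MAN2B1, at 1.52-fold, were the 3 members at least 1.5-fold higher, which is 7.89% of 38 against 6.55% of all detected genes. LIPA, at 1.58-fold lower, was the 1 member at least 1.5-fold lower, which is 2.63% against 9.63% of all detected genes. At 2-fold or more there were 2 members higher and 0 lower, where the shares over all detected genes were 2.27% and 2.55%. CTSZ was at the 2-fold line: it stood at 0.70 without background correction, 0.87 with an offset of 50, and 0.98 both with common-median scaling and in the authors' processed intensities, which leaves CTSH alone past 2-fold. MAN2B1 stood at 0.53 without background correction, 0.576 with common-median scaling and 0.578 with an offset of 50, all under 1.5-fold. The other 34 members (89.5%) lay within 1.5-fold, against 83.8% of all detected genes. Within the probe SD lay 24 of the 38 (63.2%), against 55.0% of all detected genes. Members above 0 numbered 20 and below 0 numbered 18. The shares of members past 1.5-fold are counts of 3 and 1 and lie near or under those of all genes. Level and counts depend on the scaling: set to a common median over all probes, the members had a median of -0.40, beside -0.42 for all detected genes, with 33 of 38 below 0, 1 at least 1.5-fold higher and 8 lower.

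The middle range of the members was also narrow, from -0.16 at the lower quartile to 0.17 at the upper, against -0.29 and 0.19 over all detected genes. Members were bright on the array: 29 of 38 (76.3%) had a mean log2 intensity of at least 8, against 39.5% of all detected genes. Among genes that bright, 26 of the 29 members (89.7%) were within 1.5-fold, against 87.9% of all 4178 genes.

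**Figure D1:**
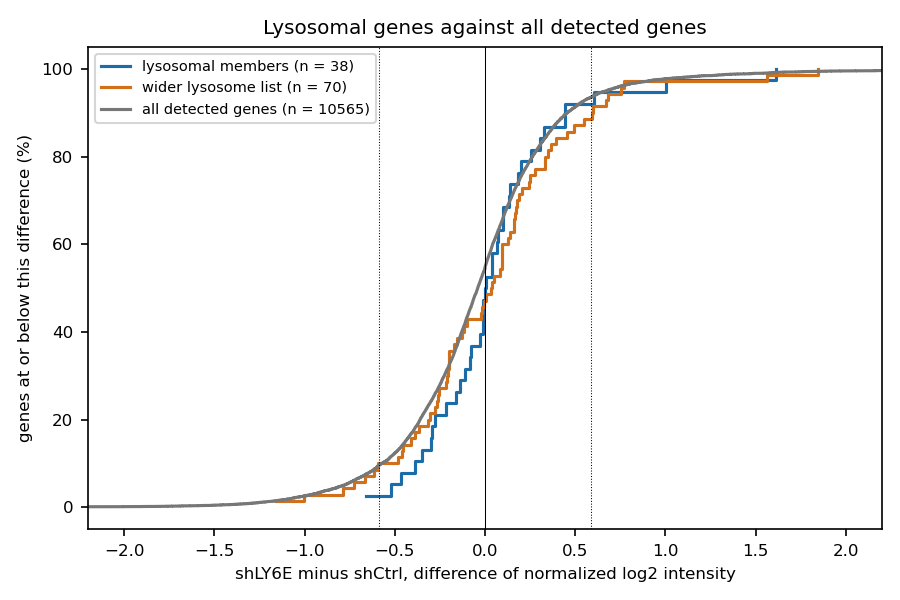
Cumulative share of genes (vertical axis, percent) at or below a given shLY6E minus shCtrl difference of normalized log2 intensity (horizontal axis), for the 38 detected lysosomal members, the 70 detected genes of a wider lysosome list and all 10565 detected genes. Dotted lines mark 1.5-fold; the members' line is the steepest through 0, with CTSZ and CTSH as its 2 steps at the right.

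Promoters were examined because many lysosomal genes are known to hold the E-box of TFEB and its relatives. RefSeq promoters of GRCh38.p14, from 250 bases before to 50 after the start, matched 30 of the 43 members, with 49 promoters. The letters CACGTG, which read the same on both strands, were in 10 of the 49 promoters (20.4%), against 7.26% of all 35116 promoters in the table. The longer form TCACGTGA, which contains them, was in 5 of the 49 (10.2%), against 0.98% of all. The following promoters are shown because 3 are rich in these letters, in capitals, and the other 2 belong to the members highest in shLY6E, in which the letters were not found.

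CTSA promoter, chr20:45891085-45891384, plus strand, 5′ to 3′: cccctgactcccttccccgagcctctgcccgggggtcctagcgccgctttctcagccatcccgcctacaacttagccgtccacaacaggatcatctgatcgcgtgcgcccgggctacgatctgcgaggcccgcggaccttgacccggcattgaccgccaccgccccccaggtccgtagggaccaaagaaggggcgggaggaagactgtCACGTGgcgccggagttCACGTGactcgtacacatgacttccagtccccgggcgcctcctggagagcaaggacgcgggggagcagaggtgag
LAMP1 promoter, chr13:113296989-113297288, plus strand, 5′ to 3′: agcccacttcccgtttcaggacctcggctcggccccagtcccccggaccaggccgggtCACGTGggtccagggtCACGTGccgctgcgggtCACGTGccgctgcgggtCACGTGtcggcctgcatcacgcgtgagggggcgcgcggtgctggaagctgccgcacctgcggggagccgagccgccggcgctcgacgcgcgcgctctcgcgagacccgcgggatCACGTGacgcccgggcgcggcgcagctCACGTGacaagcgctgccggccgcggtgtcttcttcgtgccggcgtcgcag
MCOLN1 promoter, chr19:7522374-7522673, plus strand, 5′ to 3′: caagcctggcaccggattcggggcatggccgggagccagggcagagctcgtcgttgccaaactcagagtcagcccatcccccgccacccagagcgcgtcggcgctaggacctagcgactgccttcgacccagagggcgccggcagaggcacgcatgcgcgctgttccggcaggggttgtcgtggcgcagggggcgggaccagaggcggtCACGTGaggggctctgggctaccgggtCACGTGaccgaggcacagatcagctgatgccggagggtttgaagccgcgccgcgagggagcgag
CTSH promoter, chr15:78944997-78945296, minus strand, 5′ to 3′: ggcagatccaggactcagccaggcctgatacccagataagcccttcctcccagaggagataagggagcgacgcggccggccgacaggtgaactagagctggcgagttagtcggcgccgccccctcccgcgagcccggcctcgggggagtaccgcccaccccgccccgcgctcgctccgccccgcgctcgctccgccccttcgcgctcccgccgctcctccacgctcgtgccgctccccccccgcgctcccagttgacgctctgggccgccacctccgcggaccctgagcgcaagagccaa
CTSZ promoter, chr20:59007205-59007504, minus strand, 5′ to 3′: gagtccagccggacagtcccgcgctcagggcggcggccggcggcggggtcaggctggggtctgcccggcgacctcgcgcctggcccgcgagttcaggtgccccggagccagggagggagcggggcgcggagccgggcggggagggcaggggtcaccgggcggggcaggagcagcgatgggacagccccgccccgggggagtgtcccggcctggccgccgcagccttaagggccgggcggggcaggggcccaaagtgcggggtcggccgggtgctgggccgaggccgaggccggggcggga

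**Figure D2:**
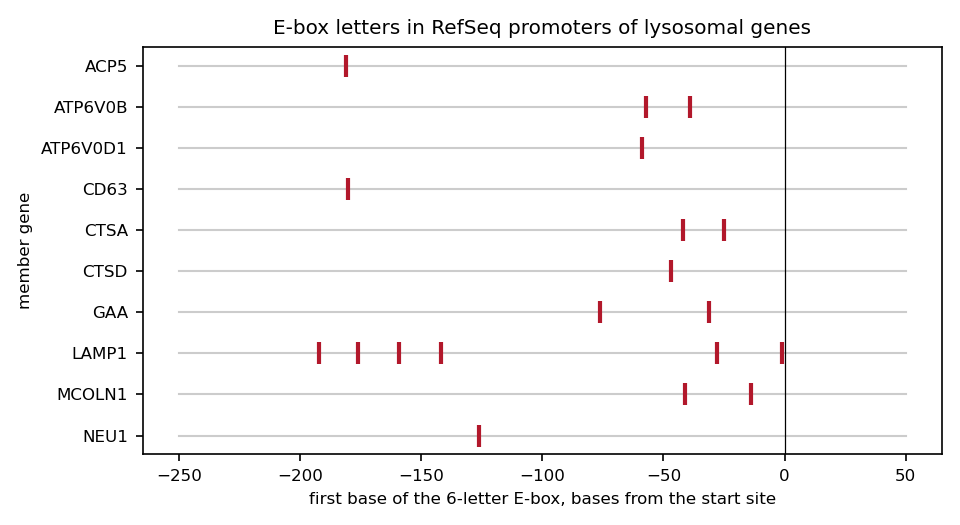
Positions of the E-box core (red marks, first base) relative to the start site (horizontal axis, in bases) in the promoters of the 10 lysosomal genes that hold it (vertical axis, in alphabetical order; grey lines are the windows searched). LAMP1 holds 6 copies, ATP6V0B, CTSA, GAA and MCOLN1 hold 2 each, and ACP5 and CD63, which have no probe here, hold 1 each.

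By the probe that stands for each gene, the proteases held the 2 largest differences, while 1 probe of CD68, described below, was higher still at 1.68. CTSH encodes cathepsin H, a cysteine protease that acts mainly as an aminopeptidase. Its brighter probe read 1643 in shLY6E and 843 in shCtrl, and its dimmer probe read 424 in shLY6E and 259 in shCtrl. These were the reverse of the array-wide ratio, and the differences were 1.61 and 1.63, which agree to within 0.022. Of all detected genes, 85 had a larger positive difference than CTSH. CTSH lies on chromosome 15, and its 20 nearest detected neighbours had a median of 0.086 and a highest value of 0.65.

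CTSZ encodes cathepsin Z, also called cathepsin X, a carboxypeptidase. Its single probe read 336 in shLY6E and 285 in shCtrl, a difference of 1.01. The 20 nearest detected neighbours of CTSZ on chromosome 20 ran from -0.58 to 0.53, so CTSZ stood above all of them.

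CTSC encodes cathepsin C, the dipeptidyl peptidase that activates the serine proteases of myeloid granules. Its 3 probes detected on both arrays gave 0.44, 0.62 and 0.63. The brightest, which stands for the gene, read 942 in shLY6E and 1024 in shCtrl. The next 2 read 714 and 537 in shLY6E, against 704 and 540 in shCtrl, and were each past 1.5-fold. CTSC therefore sat on either side of the 1.5-fold line depending on the probe. A 4th probe was detected in shLY6E only.

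The other proteases were within 1.5-fold. The endopeptidase gene CTSB had differences of 0.25 and 0.34 from its 2 probes, with intensities of 516 in shLY6E and 643 in shCtrl for the brighter. TPP1, a tripeptidyl peptidase gene, stood at 0.20. The aspartic protease gene CTSD stood at 0.07, with 378 in shLY6E and 524 in shCtrl. CTSA, the carboxypeptidase that shields beta-galactosidase and sialidase in a complex, stood at 0.039, and CTSL at 0.0081 (3 probes, up to 0.17). These 5 were at or near the array-wide ratio.

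CTSS, which cleaves the invariant chain of MHC class II in antigen-presenting cells, was the 1 detected protease below 0, at -0.27. It was dim, at 119 in shLY6E and 161 in shCtrl, as was CTSK, the collagen-degrading cathepsin of osteoclasts, at 140 in shLY6E and 177 in shCtrl with a difference of 0.067. None of the 3 probes of LGMN, the asparaginyl endopeptidase gene, was detected, with detection p-values from 0.109 to 0.496 over both arrays. Over the 10 detected proteases the median was 0.13, 9 were above 0, 2 stood past 1.5-fold upward and 0 downward. Of all detected genes, 54.4% were below 0, 6.55% stood past 1.5-fold upward and 9.63% downward. Set to a common median over all probes, the protease median was -0.25.

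**Figure D3:**
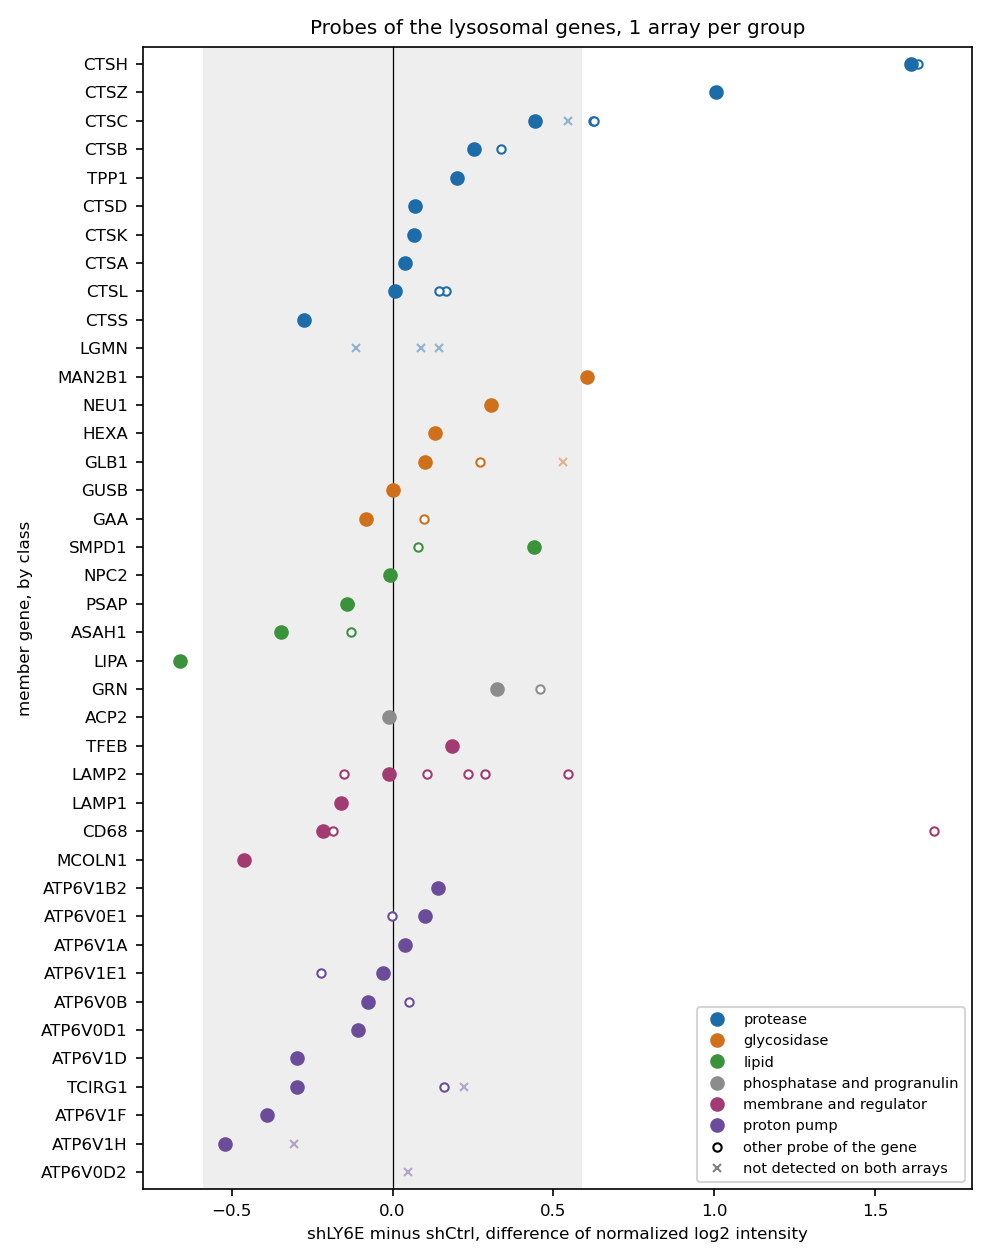
Difference shLY6E minus shCtrl of normalized log2 intensity (horizontal axis) for every probe of the 40 lysosomal genes with a probe (vertical axis, by class and by size of difference). Large filled points are the probe that stands for the gene, open points its other probes, crosses probes not detected on both arrays; the grey band is 1.5-fold. By the large points CTSH, CTSZ and MAN2B1 lie right of the band and LIPA left of it. Open points right of it are of CTSH, CTSC and CD68, the last at 1.68.

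Glycosidases remove sugars from glycoproteins and glycolipids. MAN2B1, the lysosomal alpha-mannosidase gene, had nearly equal deposited intensities, 838 in shLY6E and 836 in shCtrl, and a difference of 0.60. The 20 nearest detected neighbours of MAN2B1 on chromosome 19 had a median of -0.14 and a highest value of 0.49. The sialidase gene NEU1 read 722 in shLY6E and 865 in shCtrl, a difference of 0.31. HEXA, which encodes the alpha subunit of beta-hexosaminidase, stood at 0.13 but was close to the detection limit, at 116 in shLY6E and 140 in shCtrl. The beta-galactosidase gene GLB1 gave 0.10 and 0.27 from the 2 probes detected on both arrays, and its remaining probe was not detected. GUSB, which encodes beta-glucuronidase, stood at 0.0016, with 1206 in shLY6E and 1756 in shCtrl. GAA, which encodes acid alpha-glucosidase, gave -0.082 from its brighter probe and 0.098 from the other. The glycosidase median was 0.12 over 6 detected of 6 genes. Of these, 1 was at least 1.5-fold higher and 0 lower, beside 6.55% and 9.63% of all detected genes.

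Genes of lipid handling were the class with a member past 1.5-fold in the lower direction. LIPA encodes lysosomal acid lipase, which frees cholesterol and fatty acids from lipoprotein lipid. Its probe read 586 in shLY6E and 1289 in shCtrl, a difference of -0.66. PSAP, the precursor of the saposins that present sphingolipids to their hydrolases, read 1263 in shLY6E and 2007 in shCtrl, and its 2 probes gave -0.14 each.

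LIPA and PSAP are the 2 detected members on chromosome 10, and genes of that chromosome were lower in shLY6E as a group. The median of the 324 chromosome 10 genes detected on both arrays was -0.80, with 92.6% below 0, against -0.03 for genes elsewhere. Of these 324, 192 were lower than LIPA and 131 higher, so LIPA stood near the middle of its chromosome. Its 20 nearest detected neighbours had a median of -0.67. PSAP stood higher among them: 284 of the genes were lower and 39 higher, and its own 20 neighbours had a median of -0.62. The part of the chromosome in these 2 values was not tested.

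Outside chromosome 10, the lipid genes were within 1.5-fold. ASAH1, which encodes acid ceramidase, gave -0.35 and -0.13 from its 2 probes, the brighter at 157 in shLY6E and 239 in shCtrl. The acid sphingomyelinase gene SMPD1 gave 0.44 and 0.078, both from dim probes, the first at 134 in shLY6E and 150 in shCtrl. NPC2, which hands cholesterol to the membrane protein NPC1, was bright and level, with 2721 in shLY6E, 3734 in shCtrl and a difference of -0.0088. The class median was -0.14 over 5 detected genes, and -0.0088 without the 2 genes of chromosome 10.

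The acid phosphatase gene ACP2 was level, at -0.011, with 200.1 in shLY6E and 273 in shCtrl. GRN encodes progranulin, a secreted and lysosomal glycoprotein. Its 2 probes gave 0.33 and 0.46, with 2668 in shLY6E and 2943 in shCtrl for the brighter, both within 1.5-fold.

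**Figure D4:**
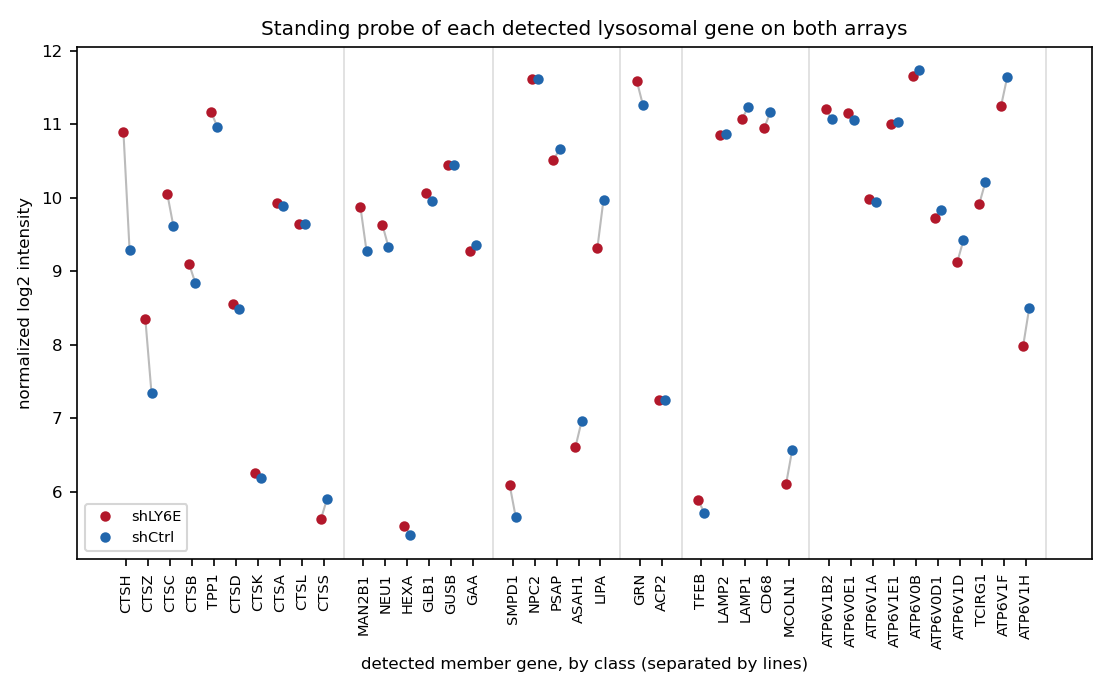
Normalized log2 intensity (vertical axis) of the probe that stands for each of the 38 detected lysosomal genes, on the shLY6E array (red, left of each pair) and the shCtrl array (blue, right of each pair); 1 array each, so there are no error bars. Genes are ordered within class by difference; levels of different probes are not comparable with each other. The pairs are close for most genes, and CTSH, CTSZ, MAN2B1 and LIPA are the wide ones past 1.5-fold.

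Membrane proteins and TFEB lay within 1.5-fold by the probe that stands for each gene. LAMP1, one of the major glycoproteins of the lysosomal membrane, read 1849 in shLY6E and 2917 in shCtrl, a difference of -0.16. LAMP2, its relative with a role in autophagy, had 6 probes detected on both arrays. The brightest, at 1587 in shLY6E and 2297 in shCtrl, gave -0.011, and the 6 ran from -0.15 to 0.55. Their range was 0.70, which is not comparable with the probe SD, since a range grows with the number of probes. The 6 probes are annotated to different transcript records of LAMP2, but probes of the same record differed too. Within the record of the brightest probe the values were -0.011, 0.11 and 0.55.

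CD68, the macrophage sialomucin, was the member whose probes differed most. Its 2 bright probes read 1694 and 1463 in shLY6E, against 2765 and 2383 in shCtrl, and gave -0.22 and -0.19. The third read 382 in shLY6E and 233 in shCtrl, a difference of 1.68, or 3.21-fold higher. All 3 carry the same transcript record in the platform annotation, and which part of the gene each reads was not analysed here. The difference of CD68 thus has no single direction: by the mean over its probes it was 0.43. Of the 16 members that both arrays detected through 2 or more probes, CD68 had a range of 1.90, the largest. The next was LAMP2 at 0.70, the median range was 0.17, and the range was under the probe SD for 12 of the 16. A range and an SD are unlike measures, and the same share over other genes was not computed. Probes gave both signs for 6 of the 16: CD68, LAMP2, TCIRG1, GAA, ATP6V0B and ATP6V0E1.

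The calcium channel gene MCOLN1 stood at -0.46, with 134 in shLY6E and 204 in shCtrl. TFEB stood at 0.18, with 126 in shLY6E and 152 in shCtrl. Both are dim, where differences depend most on the background correction. Over the 5 detected genes of this class the median was -0.16, and 0 were past 1.5-fold in either direction. Of all detected genes, 83.8% lay within 1.5-fold. As means over probes the median was 0.17, with CD68 at 0.43 and LAMP2 at 0.17.

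Proton pump subunits lay within 1.5-fold without exception among the 10 detected members, with a median of -0.092, 3 above 0 and 7 below. Of all detected genes, 83.8% lay within 1.5-fold and 54.4% were below 0. The pump has a membrane sector, V0, which conducts protons, and a cytosolic sector, V1, which hydrolyses ATP. In V0, ATP6V0B, which encodes a proteolipid ring subunit, read 2822 in shLY6E and 4019 in shCtrl, a difference of -0.077. ATP6V0E1 stood at 0.10 and ATP6V0D1, a subunit of the central stalk, at -0.11. TCIRG1, which encodes the a3 subunit needed by osteoclasts, gave -0.30 from its brighter probe (856 in shLY6E and 1501 in shCtrl) and 0.16 from a dim one. ATP6V0D2, a subunit gene known from osteoclasts, was not detected, with detection p-values of 0.103 in shLY6E and 0.0922 in shCtrl.

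In V1, the catalytic subunit gene ATP6V1A stood at 0.039 and its partner in the catalytic ring, ATP6V1B2, at 0.14, with 2056 in shLY6E and 2634 in shCtrl. The member subunits of the stalks were at or below 0. V1 genes of the wider list that both arrays detected were ATP6V1G1 at 0.13, ATP6V1C1 at -0.21 and ATP6V1B1 at -0.79. The members were as follows. ATP6V1E1 stood at -0.029, ATP6V1D at -0.30 and ATP6V1F at -0.39, the last with 2118 in shLY6E and 3788 in shCtrl. ATP6V1H, a regulatory subunit, had the lowest value of the class, -0.52, with 278 in shLY6E and 527 in shCtrl. The medians of the member subunits were -0.092 for V0 (4 detected) and -0.16 for V1 (6 detected).

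The other lysosomal genes, 89 in a list chosen for function and with none of the members, had 70 detected genes and a median of 0.036. Of these, 8 (11.4%) lay past 1.5-fold upward in shLY6E and 7 (10.0%) past it downward, against 6.55% and 9.63% of all detected genes. IFI30 encodes GILT, a thiol reductase that unfolds antigens in the lysosome, and was 3.60-fold higher, at 209 in shLY6E and 144 in shCtrl. CST7 encodes cystatin F, an inhibitor of lysosomal cysteine cathepsins, and was 2.96-fold higher, at 159 in shLY6E and 130 in shCtrl. Both were near the detection limit in shCtrl, and without background correction they stood at 0.86 and 0.58 rather than 1.85 and 1.56, which puts CST7 just under 1.5-fold.

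Among other hydrolases and activators (25 detected, median 0.16), 5 were at least 1.5-fold higher and 3 lower, beside the same 6.55% and 9.63% of all detected genes. The sulfatase genes SGSH, ARSB and ARSA stood at 0.77, 0.75 and 0.68. The less bright probes of ARSB that were detected on both arrays gave 0.61 and 0.94, while that of ARSA gave -0.31. ACP1, at 0.67, encodes a phosphatase known mainly from the cytosol. Its less bright probe gave 0.36, and as a mean over probes ACP1 stood at 0.51, under 1.5-fold. DNASE2, the acid endonuclease gene, read 368 in shLY6E and 816 in shCtrl and stood at -0.73. GM2A, the activator of ganglioside breakdown, stood at -0.67, and the phospholipase gene PLA2G15 at -0.59. Without background correction SGSH stood at 0.26, ARSB at 0.52, ARSA at 0.39, GM2A at -0.22 and PLA2G15 at -0.40, all under 1.5-fold, while IFI30, ACP1 and DNASE2 stayed past it.

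In the remaining pump list, ATP6V0E2, a variant of the e subunit, was 2.23-fold lower, with 151 in shLY6E and 335 in shCtrl. ATP6V1B1, the alternative B subunit known from kidney, stood at -0.79, and the accessory protein gene ATP6AP2 at 0.60. The median of the 9 detected genes of this class was -0.21 with 1 gene entered as a bound, and -0.043 over the 8 detected on both arrays. Other lysosomal membrane proteins (14 detected, median -0.019) held 1 gene past 1.5-fold, the transporter gene ABCA2, 2.0-fold lower at 271 in shLY6E and 674 in shCtrl. Of 7 detected genes of sorting to lysosomes (median -0.17), M6PR, a mannose 6-phosphate receptor, was past 1.5-fold, at 0.59. Of 4 detected cystatin genes (median 0.021), those other than CST7 were within 1.5-fold. Among TFEB relatives and the mTORC1 link (11 detected, median -0.11), TFE3 stood at 0.20 and the small GTPase gene RRAGB at -0.62. MITF was not detected, and TFEC was detected in shCtrl only, at 100 in shLY6E and 135 in shCtrl, with a bound of -0.20. The lowest detected intensity in shCtrl was 129, so TFEC was near the detection limit. Without background correction ATP6V1B1 stood at -0.44, RRAGB at -0.27, ATP6AP2 at 0.57 and M6PR at 0.54, under 1.5-fold, while ABCA2 and ATP6V0E2 stayed past it.

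**Figure D5:**
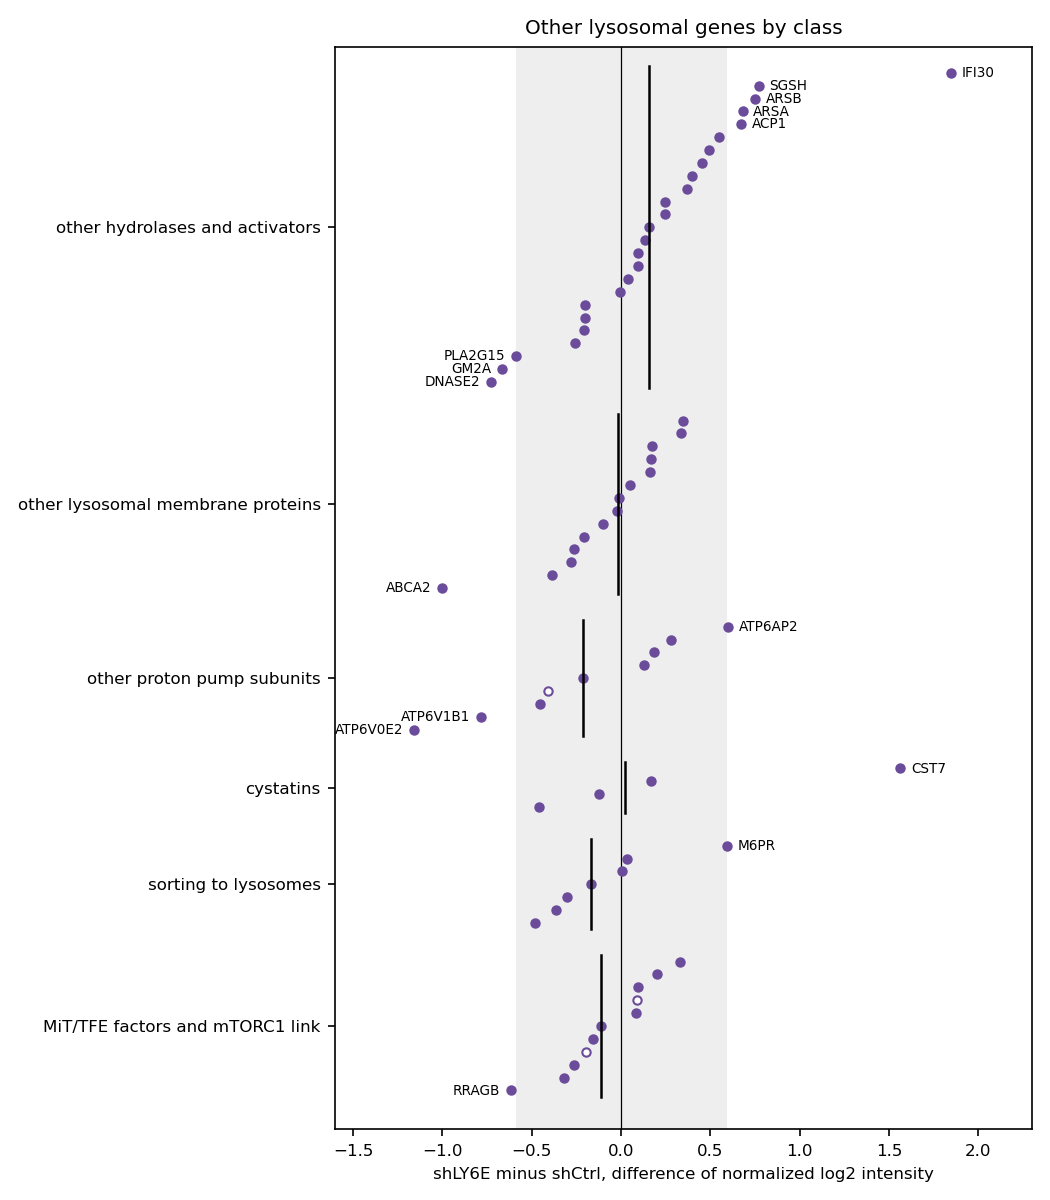
Difference shLY6E minus shCtrl of normalized log2 intensity (horizontal axis) for the 70 detected genes of the wider lysosome list, by class (vertical axis); each point is 1 gene and open points are bounds for genes detected on 1 array only. Vertical bars are class medians, the grey band is 1.5-fold, and named genes are those outside it. IFI30 and CST7 lie farthest right, ATP6V0E2 and ABCA2 farthest left.

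Set beside the promoters printed above, CTSA, LAMP1 and MCOLN1, with 2, 6 and 2 copies of the E-box letters, had differences of 0.039, -0.16 and -0.46. MCOLN1 is dim and stood at -0.21 without background correction. CTSH and CTSZ, with 0 copies each in these windows, had 1.61 and 1.01. These 2 were printed because their differences were the highest, so the contrast was set by that choice and no conclusion is drawn from it. GAA and ATP6V0B, not printed, also hold 2 copies each and stood at -0.082 and -0.077. The 8 detected members with the letters in a promoter (CTSA, CTSD, GAA, NEU1, LAMP1, MCOLN1, ATP6V0B and ATP6V0D1) had a median of -0.079 and ran from -0.46 to 0.31. The 19 detected members with a promoter in the table and no such letters had a median of 0.0081 and ran from -0.66 to 1.61. A match is a description of letters only, and no binding was measured.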

How the data were processed

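Total RNA of 2 THP-1 derivatives was labelled with biotin and read on 1 Illumina array each, per the labels' protocols. For 47321 probes, the table the authors deposited without normalization holds a linear intensity and a detection p-value per array, per the file headers. Neither background subtraction nor scaling was seen in its values. The authors' deposited processed intensities were, from their values, background-subtracted and on a common distribution (median 6.14 on both arrays). The sources used here do not state the methods behind either table, scanner software included.

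Intensities were corrected with the normexp model through the detection p-values with offset 16, quantile-normalized with limma 3.58.1 under R 4.3.3 and log2-transformed, with later steps in Python 3.11.15. Differences of dim genes are shrunk by the offset and depend on the background estimate. Platform annotation named 30113 probes by 1 symbol, 8 by several and 17200 by none, and 30074 matched RefSeq by Entrez ID, which gave chromosomes. A gene was kept if a probe had a detection p-value under 0.01 on at least 1 array, and its kept probe with the highest mean stood for it. Genes detected on 1 array only have a bound, against the lowest detected level of the other array. None (0) of the detected members was such a gene.

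With 1 array per group no p-value or error was computed, so precision is limited by the number of arrays. Lists were described by counts at 1.5-fold and 2-fold and by medians, beside all detected genes. Every detected member is named, and of each wider class the genes at least 1.5-fold apart. TFE3, MITF and TFEC were named after their values were seen. Members and lists were chosen with earlier results of these data known. The steps were tested on simulated arrays. Recovery of the simulated folds was checked only for genes with a mean log2 intensity above 8, so folds of dim genes were not covered. Alternatives were raw intensities without background correction, a common median of the probes both arrays detected, offset 50, a looser detection limit of 0.05, a requirement of detection on both arrays, no such filter, means over probes, the authors' processed intensities (values below 0 set to 0, offset 16), measured differences for bounds, and leaving out chromosome 10. Scaling to the median of all probes was added after seeing the data. No column was left without a sample (0 columns).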

Additional observations from a re-analysis of the deposited data

How the results depend on the processing

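The median of the members stayed between 0.0029 and 0.045 and the members at least 1.5-fold higher between 2 and 3 under 10 alternative settings. Of the 4 members past 1.5-fold, CTSH (1.47 to 1.63), CTSZ (0.70 to 1.01) and LIPA (-0.72 to -0.59) stayed past it under the settings that kept them, and MAN2B1 (0.53 to 0.64) did not. Without the genes of chromosome 10, 0 members were at least 1.5-fold lower, since LIPA is left out by construction. As means over probes, the membrane median was 0.17, with CD68 at 0.43. Of the 38 members, 8 changed sign under at least 1 of these 10 settings, each from a value within the probe SD: ACP2, ATP6V0B, CD68, CTSL, GAA, GUSB, LAMP2 and NPC2. Scaling to the median of all probes, most of them at background, moved all detected genes to a median of -0.42 and the members to -0.40, with 33 of 38 below 0. Under it 1 member was at least 1.5-fold higher and 8 lower, and the medians were -0.25 for proteases, -0.24 for glycosidases, -0.58 for lipid genes, -0.56 for membrane genes, -0.50 for pump subunits and -0.39 for the wider list. Relative to all genes the members then stood at 0.012 and the pump at -0.083. Which scaling is nearer to the RNA was not tested. Counts over all genes past 1.5-fold were 692 higher and 1017 lower, against 279 and 332 when no background was corrected, 444 and 604 at offset 50, and 257 and 3478 with all-probe scaling, where 6.55% and 9.63% became 2.43% and 32.9%. No paired analysis was possible because there was only 1 array in each group.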
